A study of Mus musculus with 6 samples.

Results

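The interferon response genes followed here are 43 genes that cells switch on when interferon reaches them, taken by symbol from the deposited table of counts per gene. All 43 were found, each in 1 of the 22923 rows of the table, and Eif2ak2 shares its row with the entry Gm6548. They were read in RNA of isolated pancreatic islets in 6 libraries, 3 labelled FFA2 global KO and 3 WT, each made from islets pooled from 2 mice of 10 to 12 weeks of age on normal chow. The labels call the knockout global, that is, not limited to a tissue. FFA2 is a receptor for short chain fatty acids encoded by Ffar2. Per the study's methods both genotypes came from crosses of heterozygous Ffar2+/− mice on a C57BL/6J background, and islets were left to recover overnight in culture after isolation with collagenase. Whether the RNA was taken before or after that night is not stated, and the study gives the mice as male and a little older than the labels do. With the genes left out that are given under processing, the libraries kept 17067263 to 22792367 counts in the FFA2 global KO group and 19352339 to 21283444 counts in WT. The genes skipped by the authors' caller, among those left out, held 1.08% to 1.81% of all counts in the FFA2 global KO group and 2.27% to 8.21% in WT. The 43 genes took 0.0712% to 0.232% of the counts kept in the FFA2 global KO group and 0.0913% to 0.108% in WT.

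The targeted gene itself went against the labels. Ffar2 had 1750, 750 and 673 counts in the libraries labelled FFA2 global KO, against 774, 559 and 550 counts in WT (log2 fold change 0.89, standard error 0.21, adjusted p = 0.852 from edgeR). These counts are not scaled to library size. Once scaled, all libraries labelled FFA2 global KO lay above all WT libraries, which 5.36% of all genes tested showed. Which part of the gene the knockout removes is not described in the labels or methods, and reads from outside that part would check nothing. Every direction given here rests on the labels, and the libraries are called KO-labelled in what follows. Libraries also differed in the exocrine tissue that came with the islets. A list of 23 acinar genes took 1.54%, 10.1% and 25.8% of the counts kept in KO-labelled replicates 1 to 3, against 4.52%, 5.43% and 1.40% in WT replicates 1 to 3. The labels do not say whether the pools of a genotype were collected or prepared apart, so the p-values measure the spread between these libraries, which may be technical in part.

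Type I interferons are secreted when a cell detects viral or misplaced nucleic acid, and interferon gamma is secreted by activated lymphocytes. Both act through JAK kinases. Type I interferon assembles a complex with STAT2 and IRF9 that binds the interferon-stimulated response element (ISRE), while interferon gamma acts through the gamma-activated site (GAS). The genes so induced encode proteins that block viral translation, degrade RNA, modify proteins with ISG15, attack vacuoles and raise antigen presentation. In islets this programme is known from type 1 diabetes, where beta cells that carry it and raise antigen presentation lie beside infiltrating immune cells.

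The libraries of a genotype did not agree in this programme, and 1 library stood apart. In KO-labelled replicate 1, 37 of the 43 genes were at their highest level of the 6 libraries, and in no gene was that library the lowest. Levels are given as CPM, which are counts scaled to a common library size, with library sizes adjusted by TMM, a method that evens out composition. The summed level of the genes other than Irf1 was 1780, 575 and 490 CPM in KO-labelled replicates 1 to 3, against 733, 525 and 624 CPM in WT replicates 1 to 3. Irf1 is left out of this sum because it alone held 394, 214 and 418 CPM in the KO-labelled libraries, against 217, 356 and 381 CPM in WT. KO-labelled replicates 2 and 3 thus lay within or just under the WT range, and the excess was in replicate 1.

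A minimum of counts was passed by 41 of the 43 genes (all but Oas3 and Mx1), and these were tested. Replicate 1 was chosen for description after its values had been seen, so its excess is given with no test. Among the 41 genes, 35 were highest in KO-labelled replicate 1, a pattern that 29.0% of all 14082 genes tested showed. For 17 of the 41 the level there was at least 2-fold above the next library, against 0.881% of all genes tested. The median of the 41 genes, taken as the ratio to the mean of the WT libraries, was 2.33-fold in KO-labelled replicate 1, 0.872-fold in replicate 2 and 0.889-fold in replicate 3. In WT replicates 1 to 3 it was 1.08-fold, 0.850-fold and 1.02-fold. Over all genes tested this median lay between 0.987-fold and 1.00-fold in each of the 6 libraries.

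**Figure D1:**
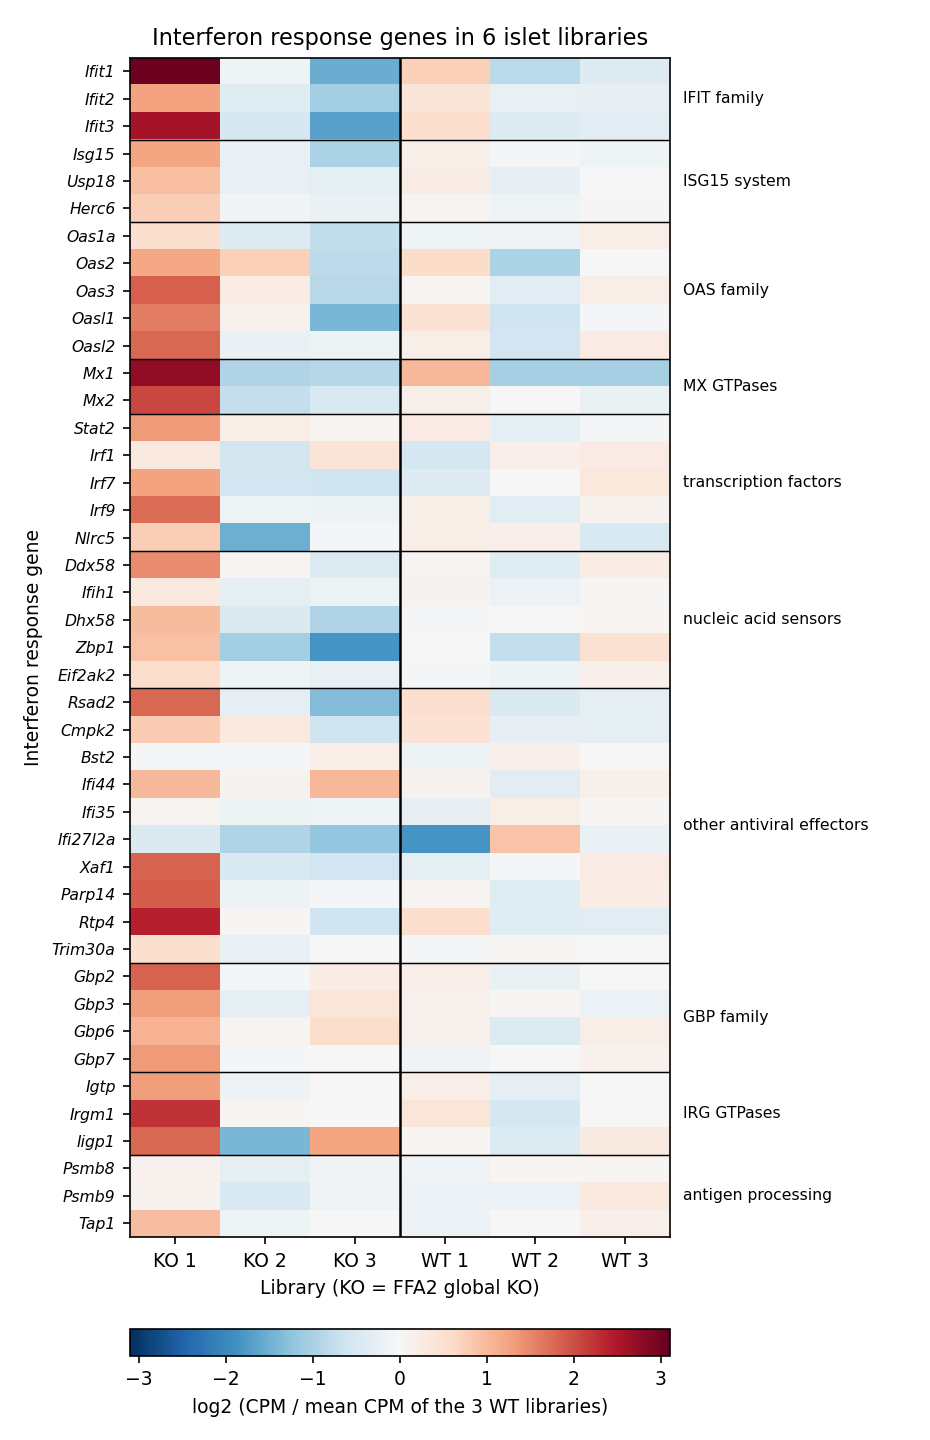
Level of the 43 interferon response genes in each library, as the log2 ratio of CPM to the mean CPM of the 3 WT libraries (colour), with genes in rows by role and libraries in columns. The first column, KO-labelled replicate 1, is red in nearly all rows, with Ifit1 at 8.21 times the WT mean, while KO-labelled replicates 2 and 3 are mostly pale or blue.

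The comparison of the genotypes asks whether islets of mice lacking FFA2 differ in this programme. With edgeR's quasi-likelihood test, 0 of the 41 genes passed an adjusted p of 0.05 (0% of all 14082 genes did), and the lowest adjusted p among them was 0.852. None was called by DESeq2 or limma-voom either (0 of 41 in each), and 0 of 41 had an unadjusted p under 0.05, against 4.69% of all genes tested. The log2 fold change of KO-labelled over WT was above 0 for 34 and below 0 for 7 of the 41, where 53.3% of all genes tested lay above 0. Its median was 0.55, against 0.016 over all genes tested. In 0 of the 41 genes did all KO-labelled libraries lie above all WT libraries (5.36% of all genes tested did), and in 0 did all lie below them (5.84%).

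The direction of the median turned with 1 library. Without KO-labelled replicate 1, 9 of 41 genes lay above 0 and the median log2 fold change was −0.18, against 0.69 without replicate 2 and 0.68 without replicate 3. KO-labelled replicate 1 was the highest library for most of these genes. Leaving it out lowers their fold changes by construction, so the direction without it is no separate test. Without KO-labelled replicate 1, 5 genes had an unadjusted p under 0.05 (6.96% of all genes tested in that fit did) and all of them were lower in the KO-labelled libraries, with 0 past an adjusted p of 0.05 in edgeR. These were Dhx58 (log2 fold change −0.66), Mx2 (−0.60), Ifit2 (−0.68), Ifit3 (−0.99) and Irf7 (−0.60). Without replicate 2 there were 6 (against 3.68% of all genes), namely Irgm1, Iigp1, Gbp3, Gbp2, Ifi44 and Gbp6, and without replicate 3 there were 6 (against 8.66%), namely Stat2, Irgm1, Rtp4, Ifit1, Gbp2 and Ddx58, all of them higher in the KO-labelled libraries and 0 past an adjusted p of 0.05. The 95% intervals with all libraries were wide, and 30 of the 41 reached beyond a 2-fold rise, so that a rise of that size lay within them. For 10 genes, among them Bst2, Psmb8 and Ifih1, the interval lay within 2-fold in both directions.

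**Figure D2:**
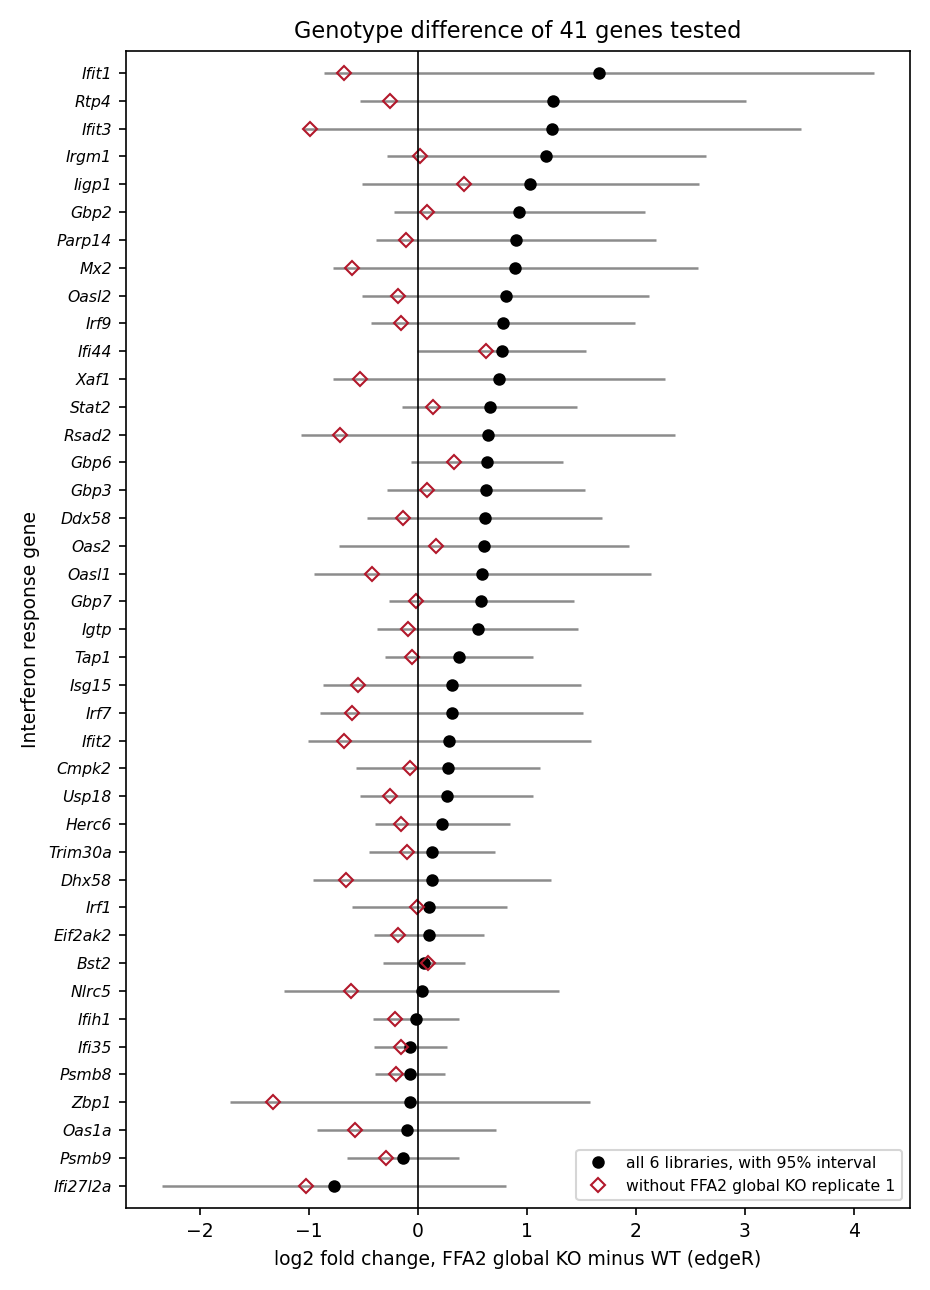
Log2 fold change (KO-labelled minus WT, x axis) of the 41 genes tested (rows), with its 95% interval in edgeR (black points and grey lines) and the value without KO-labelled replicate 1 (open red diamonds). All 41 intervals include 0, and the diamonds of 32 genes lie to the left of 0.

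The factors that interferon activates act at promoters, so the letters of both elements were looked up there. RefSeq promoter windows were used (assembly GRCm38.p6, which is the mm10 build), each of 300 bases from 250 before to 50 after a gene's start. A window was found for 31 of the 43 genes. The ISRE was searched as GAAANNGAAA on both strands (TTTCNNTTTC on the other), where matches may overlap each other, and the GAS as TTCNNNGAA, which reads alike on both strands. An ISRE match was present for 17 of the 31 genes (54.8%), against 3.99% of all 27025 genes with a window. A GAS match was present for 9 of the 31 (29.0%), against 9.55% of all genes. The level in KO-labelled replicate 1 was 0.980 to 8.21 times the WT mean over the 17 genes with an ISRE match (median 2.48) and 1.06 to 3.56 times over the 14 without (median 1.99). The ranges overlap. The stretches that follow are shown because Ifit1, Ifit3, Rsad2 and Irgm1 carried much of the excess, whereas Bst2 and Irf1 did not show it. Each reads 5′ to 3′ along the gene's own strand and ends before the gene's start, with ISRE letters in capitals for the first 5 and GAS letters for Irf1.
Ifit1 (chr19:34640750-34640848, plus strand): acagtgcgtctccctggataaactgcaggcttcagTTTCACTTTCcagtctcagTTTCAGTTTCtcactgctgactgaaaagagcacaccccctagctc
Ifit3 (chr19:34583338-34583451, plus strand): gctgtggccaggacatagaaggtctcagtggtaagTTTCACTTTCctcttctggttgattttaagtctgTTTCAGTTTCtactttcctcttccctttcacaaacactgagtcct
Rsad2 (chr12:26456528-26456607, minus strand): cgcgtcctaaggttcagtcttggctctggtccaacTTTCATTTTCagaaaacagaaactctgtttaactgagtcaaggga
Irgm1 (chr11:48871421-48871485, minus strand): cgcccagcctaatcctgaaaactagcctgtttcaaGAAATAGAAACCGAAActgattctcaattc
Bst2 (chr8:71537552-71537637, minus strand): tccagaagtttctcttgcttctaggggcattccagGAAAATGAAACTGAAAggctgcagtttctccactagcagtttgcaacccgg
Irf1 (chr11:53769889-53769967, plus strand): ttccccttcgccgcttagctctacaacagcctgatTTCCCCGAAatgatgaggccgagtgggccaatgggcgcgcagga
Ifit1 and Ifit3 hold a pair of ISRE matches each, which begin with the same letters, TTTCACTTTC and then TTTCAGTTTC. Irgm1 and Bst2 hold matches that overlap each other. The level of Bst2 in KO-labelled replicate 1 nevertheless lay within the range of the other libraries.

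The IFIT proteins bind viral RNA and block its translation, and their genes Ifit2, Ifit3 and Ifit1 lie close together on chromosome 19. Ifit1 was at 245, 27.1 and 10.2 CPM in the KO-labelled libraries, against 50.2, 16.7 and 22.7 CPM in WT. Ifit3 was at 72.1, 8.31 and 3.77 CPM in the KO-labelled libraries, against 17.3, 9.19 and 9.63 CPM in WT. Both were highest in KO-labelled replicate 1, second in WT replicate 1 and lowest in KO-labelled replicate 3, so the KO-labelled libraries enclosed the whole WT range. The log2 fold change was 1.66 for Ifit1 (standard error 1.07, adjusted p = 0.852 from edgeR) and 1.23 for Ifit3 (standard error 0.97, adjusted p = 0.860 from edgeR). Ifit2 moved less, with 38.4, 12.4 and 7.74 CPM in the KO-labelled libraries, against 21.3, 13.7 and 13.5 CPM in WT, in the same order of the outer libraries. Reads of Ifit3 could be shared with a close copy listed as I830012O16Rik, since how reads with several matches were counted is not given.

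ISG15 is a ubiquitin-like protein that is joined to other proteins, in mice by the ligase that Herc6 encodes, and USP18 removes it and also dampens the type I interferon receptor. Isg15 was at 23.2, 8.43 and 5.07 CPM in the KO-labelled libraries, against 11.3, 9.48 and 9.05 CPM in WT (log2 fold change 0.31, standard error 0.50, adjusted p = 0.920 from edgeR). Usp18 was at 49.3, 22.0 and 21.2 CPM in the KO-labelled libraries, against 30.2, 21.5 and 25.8 CPM in WT. Herc6 was at 22.5, 12.5 and 11.4 CPM in the KO-labelled libraries, against 14.2, 12.1 and 13.5 CPM in WT. All of them peaked in KO-labelled replicate 1 and were lowest in replicate 3 of the same label, but the excess over the WT mean (1.69-fold to 2.33-fold) was smaller than that of Ifit1 and Ifit3.

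The OAS enzymes make 2′-5′ oligoadenylates that switch on the nuclease RNase L, and the OAS-like proteins share their fold. Oasl2 was at 32.3, 8.20 and 8.36 CPM in the KO-labelled libraries, against 10.7, 6.24 and 11.3 CPM in WT (log2 fold change 0.80, standard error 0.56, adjusted p = 0.852 from edgeR). Oasl1, which in mice restrains translation of IRF7, was at 33.1, 12.2 and 4.18 CPM in the KO-labelled libraries, against 15.2, 7.16 and 10.8 CPM in WT. Both stood high in KO-labelled replicate 1 only, and for Oasl1 the lowest library was again KO-labelled replicate 3. Oas2 and Oas1a were low throughout, at 0.726 to 5.29 CPM, and were also highest in KO-labelled replicate 1, by 1.37-fold and 1.22-fold over the next library. Oas3 did not pass the minimum of counts, with 22, 5 and 2 counts in the KO-labelled libraries, against 6, 4 and 6 counts in WT. Oas1a has several close copies (Oas1b, Oas1c and Oas1g among them) that could share its reads.

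The MX proteins are GTPases that trap viral nucleocapsids, and common laboratory mouse strains carry a defective Mx1. Mx2 was at 18.9, 2.69 and 3.29 CPM in the KO-labelled libraries, against 5.15, 4.50 and 3.95 CPM in WT (log2 fold change 0.89, standard error 0.71, adjusted p = 0.861 from edgeR). Mx1 had 145, 8 and 7 counts in the KO-labelled libraries, against 41, 9 and 9 counts in WT, and did not pass the filter because fewer than 3 libraries reached its minimum. For both genes KO-labelled replicate 1 was the highest and WT replicate 1 the next.

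**Figure D3:**
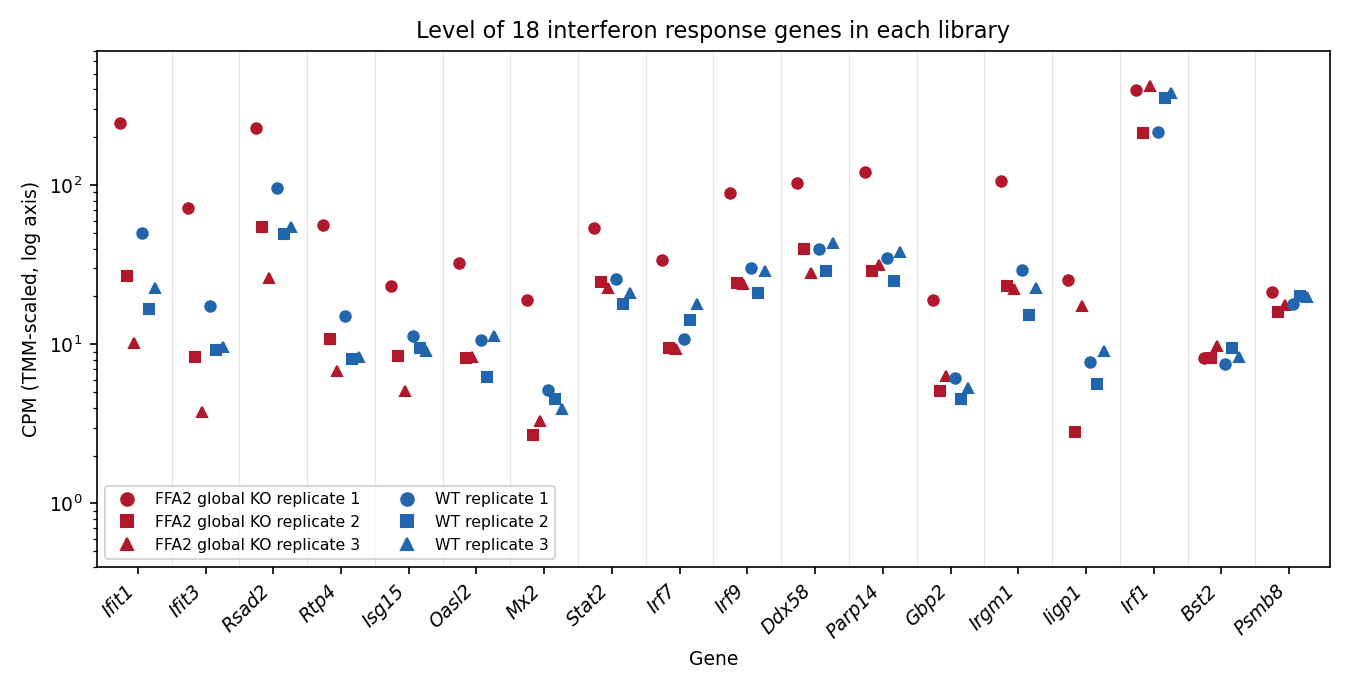
CPM (log axis) of 18 interferon response genes in each of the 6 libraries, with KO-labelled libraries in red to the left and WT libraries in blue to the right of each gene's centre, and symbols for replicates 1 to 3. The red circle (KO-labelled replicate 1) stands above the other libraries from Ifit1 to Iigp1, and falls among them for Irf1 and Bst2.

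Among the transcription factors, those that carry the type I signal were high in KO-labelled replicate 1. Irf9, the DNA-binding part of the complex with STAT2, was at 89.1, 24.3 and 23.9 CPM in the KO-labelled libraries, against 30.2, 21.1 and 29.1 CPM in WT (log2 fold change 0.78, standard error 0.51, adjusted p = 0.852 from edgeR). Stat2 was at 54.0, 24.7 and 22.7 CPM in the KO-labelled libraries, against 25.7, 17.8 and 20.9 CPM in WT (log2 fold change 0.66, standard error 0.34, adjusted p = 0.852 from edgeR). Irf7, which amplifies interferon production, was at 33.7, 9.49 and 9.32 CPM in the KO-labelled libraries, against 10.8, 14.2 and 17.9 CPM in WT. In KO-labelled replicates 2 and 3 Irf7 lay under every WT library, whereas Stat2 and Irf9 lay within the WT range. Irf1, induced chiefly through the GAS, did not follow this pattern and was highest in KO-labelled replicate 3, with similar levels in KO-labelled replicate 2 and WT replicate 1 at its low end (log2 fold change 0.10, standard error 0.30, adjusted p = 0.958 from edgeR). Per length it was also the most abundant of the 43 genes, at 129 RPKM in the authors' pooled value for the KO group and 120 RPKM in that for WT, where the next gene in the KO value was Ifit1, at 24.7 RPKM, and in the WT value Ifi35, at 14.5 RPKM. Nlrc5, the activator of MHC class I genes, was low, at 0.468 to 2.26 CPM over the 6 libraries.

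The sensors of nucleic acid differed in how far they rose above the other libraries in KO-labelled replicate 1. Ddx58 encodes RIG-I, a sensor of viral RNA ends, and was at 103, 39.9 and 27.9 CPM in the KO-labelled libraries, against 39.5, 28.8 and 43.6 CPM in WT (log2 fold change 0.61, standard error 0.46, adjusted p = 0.854 from edgeR). Dhx58, which encodes the related regulator LGP2, was at 9.28, 3.45 and 2.47 CPM in the KO-labelled libraries, against 4.49, 4.69 and 4.91 CPM in WT. Its WT libraries were close together, and KO-labelled replicate 1 lay above and replicates 2 and 3 below them. Ifih1, which encodes MDA5, a sensor of long double-stranded RNA in which variants alter the risk of type 1 diabetes in people, was much flatter, at 37.8, 25.5 and 27.5 CPM in the KO-labelled libraries, against 33.2, 27.3 and 31.7 CPM in WT (log2 fold change −0.020, 95% interval −0.41 to 0.38). Eif2ak2, the kinase PKR that halts translation, was at 44.7, 28.2 and 26.2 CPM in the KO-labelled libraries, against 30.1, 27.8 and 34.7 CPM in WT. Zbp1, a sensor of Z-form nucleic acid, had 2 to 22 counts per library, too few to set the libraries apart with any precision.

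The other antiviral effectors covered the whole span from a large excess to none. Rsad2 encodes viperin, which makes a chain-terminating nucleotide, and was at 230, 54.7 and 26.2 CPM in the KO-labelled libraries, against 95.5, 49.2 and 54.9 CPM in WT (log2 fold change 0.64, standard error 0.73, adjusted p = 0.886 from edgeR). Cmpk2, its neighbour on chromosome 12, encodes a nucleotide kinase of mitochondria and was at 87.6, 63.0 and 33.2 CPM in the KO-labelled libraries, against 68.8, 42.3 and 41.2 CPM in WT. The neighbours shared the order of the top and bottom libraries, but Cmpk2 exceeded the next library by only 1.27-fold in KO-labelled replicate 1, against 2.41-fold for Rsad2. Parp14, an ADP-ribosyltransferase, was at 121, 29.1 and 31.7 CPM in the KO-labelled libraries, against 34.7, 25.1 and 38.1 CPM in WT. Rtp4, which binds foreign RNA and restrains flaviviruses, was at 56.0, 10.8 and 6.78 CPM in the KO-labelled libraries, against 14.97, 8.13 and 8.33 CPM in WT (log2 fold change 1.24, standard error 0.75, adjusted p = 0.852 from edgeR). Xaf1, which promotes apoptosis, was at 11.8, 2.40 and 2.19 CPM in the KO-labelled libraries, against 2.73, 3.24 and 3.995 CPM in WT. For these genes the remaining KO-labelled libraries lay in or under the WT range.

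Among the remaining effectors, Bst2, Ifi35, Ifi44 and Ifi27l2a were highest in another library than KO-labelled replicate 1. Bst2 encodes tetherin, which holds budding virus at the cell surface, and was at 8.25, 8.26 and 9.73 CPM in the KO-labelled libraries, against 7.48, 9.44 and 8.33 CPM in WT (log2 fold change 0.054, 95% interval −0.32 to 0.43). Ifi35 was at 24.9, 21.1 and 21.4 CPM in the KO-labelled libraries, against 19.8, 26.7 and 24.4 CPM in WT. Both overlapped fully between the labels. Ifi44 had the lowest unadjusted p of the 41 genes (0.0505, adjusted p = 0.852 from edgeR), with 3.20, 1.70 and 3.22 CPM in the KO-labelled libraries, against 1.72, 1.26 and 1.78 CPM in WT, and here KO-labelled replicate 3 was as high as replicate 1. Trim30a ranged from 2.69 to 4.39 CPM and was highest in KO-labelled replicate 1, by 1.38-fold over the next library. Ifi27l2a, at 5 to 30 counts per library, was highest in WT replicate 2 and was the gene with the lowest log2 fold change of the 41 (−0.77, standard error 0.67).

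The guanylate-binding proteins (GBP) and the immunity-related GTPases (IRG) coat vacuoles that hold parasites and bacteria, and answer strongly to interferon gamma as well as to type I interferon. Gbp2 was at 18.9, 5.09 and 6.30 CPM in the KO-labelled libraries, against 6.16, 4.55 and 5.34 CPM in WT (log2 fold change 0.93, standard error 0.49, adjusted p = 0.852 from edgeR). Gbp7 was at 36.3, 14.2 and 14.9 CPM in the KO-labelled libraries, against 13.5, 14.5 and 15.98 CPM in WT. Gbp6 was at 10.96, 5.50 and 7.54 CPM in the KO-labelled libraries, against 5.63, 3.87 and 5.97 CPM in WT. Each of these, and Gbp3 at 3.98 to 12.1 CPM, was highest in KO-labelled replicate 1, and KO-labelled replicate 3 lay within or above the WT range in all 4, unlike in the IFIT genes. Irgm1, which protects the cell's own membranes from the other IRG proteins, was at 106, 23.2 and 22.3 CPM in the KO-labelled libraries, against 29.3, 15.4 and 22.6 CPM in WT (log2 fold change 1.18, standard error 0.62, adjusted p = 0.852 from edgeR). Igtp was at 30.4, 10.9 and 12.2 CPM in the KO-labelled libraries, against 14.2, 10.2 and 12.5 CPM in WT. Iigp1 differed from both, since it was high in KO-labelled replicates 1 and 3 and lowest in replicate 2, at 25.5, 2.81 and 17.4 CPM, against 7.75, 5.61 and 9.10 CPM in WT.

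The genes of antigen processing moved least. Psmb8 and Psmb9 encode subunits of the immunoproteasome, and Tap1 encodes a subunit of the transporter that moves peptides into the endoplasmic reticulum, all in a cluster on chromosome 17. Psmb8 was at 21.2, 15.9 and 17.7 CPM in the KO-labelled libraries, against 17.8, 20.03 and 19.98 CPM in WT (log2 fold change −0.076, 95% interval −0.40 to 0.25). Psmb9 was at 10.2, 6.79 and 8.70 CPM in the KO-labelled libraries, against 8.32, 8.27 and 11.7 CPM in WT. Neither stood out in KO-labelled replicate 1, whereas Tap1 did, at 35.95, 16.9 and 18.5 CPM, against 16.3, 18.4 and 20.5 CPM in WT. By role, the median excess of KO-labelled replicate 1 over the WT mean was 5.98-fold for the 3 IFIT genes, 3.41-fold for the 3 IRG genes, 2.63-fold for the 4 OAS genes tested and 2.47-fold for the 4 GBP genes. It was 1.91-fold for the 3 genes of the ISG15 system, 1.87-fold for the 5 sensors and 1.10-fold for the 3 genes of antigen processing. For Mx2, the 1 MX gene tested, it was 4.17-fold. For the 5 transcription factors it was 2.36-fold, and for the 10 other antiviral effectors 1.87-fold.

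Interferon genes themselves were read next, from a list of the pathway outside the 43. Of 10 in the table, Ifnb1, which encodes interferon beta, was the sole gene to pass the filter, with 152, 119 and 41 counts in the KO-labelled libraries, against 249, 181 and 151 counts in WT. This is 6.24, 6.97 and 2.81 CPM in the KO-labelled libraries, against 10.96, 8.76 and 7.27 CPM in WT (log2 fold change −0.74, adjusted p = 0.852 from edgeR). Ifnb1 RNA was thus present in all 6 libraries and was not raised in KO-labelled replicate 1. All KO-labelled libraries lay below all WT libraries, which 5.84% of all genes tested showed. Its unadjusted p was under 0.05 in DESeq2 and in limma-voom but not in edgeR (0.0634 from edgeR). Its adjusted p was not under 0.05 in any of them. Ifna1, Ifna2 and Ifna5 had at most 2 counts in a library. Ifng, Ifna4, Ifnk, Ifne, Il28a and Il28b had 0 in all 6, where 0 counts allow up to 0.123 to 0.206 CPM depending on the library.

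Receptors and kinases of the pathway were expressed in every library, and 0 of 11 tested passed an adjusted p of 0.05 in edgeR (likewise 0 in DESeq2 and 0 in limma-voom, and 0 of the 11 reached an unadjusted p of 0.05 in edgeR). Ifnar1, a chain of the type I receptor, was at 60.8, 43.3 and 39.9 CPM in the KO-labelled libraries, against 40.0, 47.3 and 48.9 CPM in WT. Ifngr2, a chain of the interferon gamma receptor, was at 55.3, 26.3 and 17.3 CPM in the KO-labelled libraries, against 20.7, 24.8 and 24.8 CPM in WT. Of the 11, 7 were highest in KO-labelled replicate 1 (63.6%, against 29.0% of all genes tested).

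Of 16 genes tested that act in the induction of interferon, 0 passed in edgeR, DESeq2 or limma-voom, 1 had an unadjusted p under 0.05 in edgeR (against 4.69% of all genes tested), and 8 were highest in KO-labelled replicate 1 (against 29.0%). The lowest unadjusted p was that of Traf3, an adaptor of the sensors (0.0233, log2 fold change 0.40, adjusted p = 0.852 from edgeR), at 118, 97.2 and 89.0 CPM in the KO-labelled libraries, against 87.3, 72.2 and 71.6 CPM in WT. Its groups did not overlap, which 5.36% of all genes tested showed in that direction. Of 10 inhibitors tested, 0 passed in edgeR, DESeq2 or limma-voom, 1 had an unadjusted p under 0.05 in edgeR (against 4.69%), and 6 were highest in that library (against 29.0%). Socs1, which blocks JAK kinases, was at 6.36, 2.05 and 2.88 CPM in the KO-labelled libraries, against 2.38, 3.097 and 2.02 CPM in WT, and was highest in KO-labelled replicate 1. Socs3, a related inhibitor, had the lowest unadjusted p of the list (0.0426, log2 fold change 0.56, adjusted p = 0.852 from edgeR), at 201, 140 and 263 CPM in the KO-labelled libraries, against 157, 131 and 122 CPM in WT, with KO-labelled replicate 3 the highest.

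A further 57 interferon-stimulated genes outside the 43 were tested, and 0 passed an adjusted p of 0.05 in edgeR, DESeq2 or limma-voom, and 5 had an unadjusted p under 0.05 in edgeR (against 4.69% of all genes tested), of which Slfn5, Tgtp1 and Ifi47 were higher and Psme1 and Psme2 lower in the KO-labelled libraries. Of the 57, 35 were highest in KO-labelled replicate 1 (61.4%, against 29.0% of all genes tested) and 11 were at least 2-fold above the next library there (against 0.881%). Their median ratio to the WT mean was 1.26-fold, 0.892-fold and 0.998-fold in KO-labelled replicates 1 to 3, against 0.986-fold, 0.987-fold and 1.01-fold in WT replicates 1 to 3. The list was mixed. Gbp5 was at 19.8, 3.40 and 5.002 CPM in the KO-labelled libraries, against 5.19, 3.44 and 5.15 CPM in WT, and Irgm2 at 50.03, 11.1 and 14.7 CPM, against 13.4, 9.68 and 11.6 CPM in WT. MHC class I genes were flat, with H2-K1 at 638, 513 and 528 CPM in the KO-labelled libraries, against 568, 645 and 617 CPM in WT. Slfn5 had the lowest unadjusted p of the list (0.0110, log2 fold change 0.72, adjusted p = 0.852 from edgeR), at 38.1, 20.6 and 29.7 CPM in the KO-labelled libraries, against 18.8, 17.7 and 17.2 CPM in WT. Its groups did not overlap, which 5.36% of all genes tested showed in that direction. Those of Psme1 and Psme2 did not overlap either, with the KO-labelled libraries lower, which 5.84% of all genes tested showed.

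**Figure D4:**
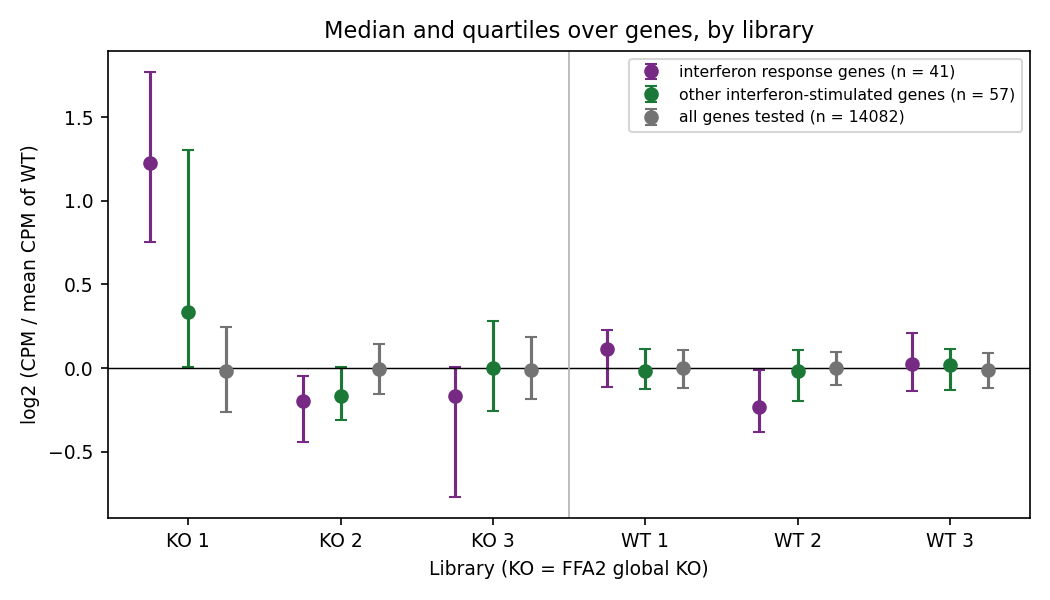
Median (points) and quartiles (bars) over genes of the log2 ratio of CPM to the WT mean, for each library, in the 41 interferon response genes tested (purple), 57 other interferon-stimulated genes (green) and all 14082 genes tested (grey, with genes at 0 in a library left out there). In KO-labelled replicate 1 the purple median is at 1.22 and the grey at −0.019, while in the other libraries the purple medians lie between −0.23 and 0.11.

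Marker lists of other cell types were read in the same libraries. In bulk RNA, fewer cells of a type and less RNA per cell cannot be told apart. The 15 macrophage genes, of which 0 were at 0, summed to 139, 158 and 201 CPM in the KO-labelled libraries, against 176, 260 and 200 CPM in WT. That sum was lowest in the library in which the interferon response genes were highest, and 0 of the 15 were highest there. Of 13 genes of T, B and NK cells, the defining Ncr1 and Nkg7 were at 0 in all libraries, Cd3d, Cd3e and Cd3g had 0 counts in KO-labelled replicate 1, and the list summed to 17.0, 10.1 and 6.92 CPM in the KO-labelled libraries, against 12.2, 21.6 and 28.5 CPM in WT, most of it Cd79a. WT replicate 2 was the sole library with more than 3 counts of Ms4a1 (26) or Cd79b (25). The 6 neutrophil genes summed to at most 2.23 CPM in any library. Genes of plasmacytoid dendritic cells, potent producers of type I interferon (5 summed, without Bst2 and Irf7), were at 79.6, 95.9 and 80.6 CPM in the KO-labelled libraries, against 101, 92.5 and 80.4 CPM in WT. Nearly all of this sum was Tcf4 and Cox6a2, while the defining Siglech was at 0.862, 0.878 and 1.23 CPM in the KO-labelled libraries, against 1.06, 1.31 and 1.54 CPM in WT, and Ccr9 and Spib stood at 0 to 0.581 CPM.

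Islet and exocrine markers moved with the libraries too. Beta cell genes (9 summed of 12 listed) were at 4622, 6113 and 5180 CPM in the KO-labelled libraries, against 6025, 6266 and 5905 CPM in WT. Ins1, Ins2 and Iapp are the listed genes not in this sum, so it does not cover insulin. G6pc2 was lowest in KO-labelled replicate 1, at 1183, 2153 and 1835 CPM in the KO-labelled libraries, against 2037, 2701 and 2224 CPM in WT. The other 8 genes summed to 3439, 3960 and 3345 CPM in the KO-labelled libraries, against 3988, 3565 and 3681 CPM in WT. Without G6pc2, KO-labelled replicate 1 thus still lay under each WT library, and replicate 3 was the lowest. The 23 acinar genes summed to 14421, 100976 and 328620 CPM in the KO-labelled libraries, against 42332, 52321 and 13011 CPM in WT. KO-labelled replicate 3, with the largest acinar sum, was also the library in which 18 of the 43 interferon response genes were lowest (17 of the 41 tested, against 20.8% of all genes tested), while WT replicate 3 had as low an acinar sum as KO-labelled replicate 1 without the excess. With libraries scaled without the acinar genes, the median log2 fold change of the 41 genes was 0.54 and 34 of 41 remained above 0. The part of acinar or beta cell content in the levels of the interferon response genes was not tested.

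**Figure D5:**
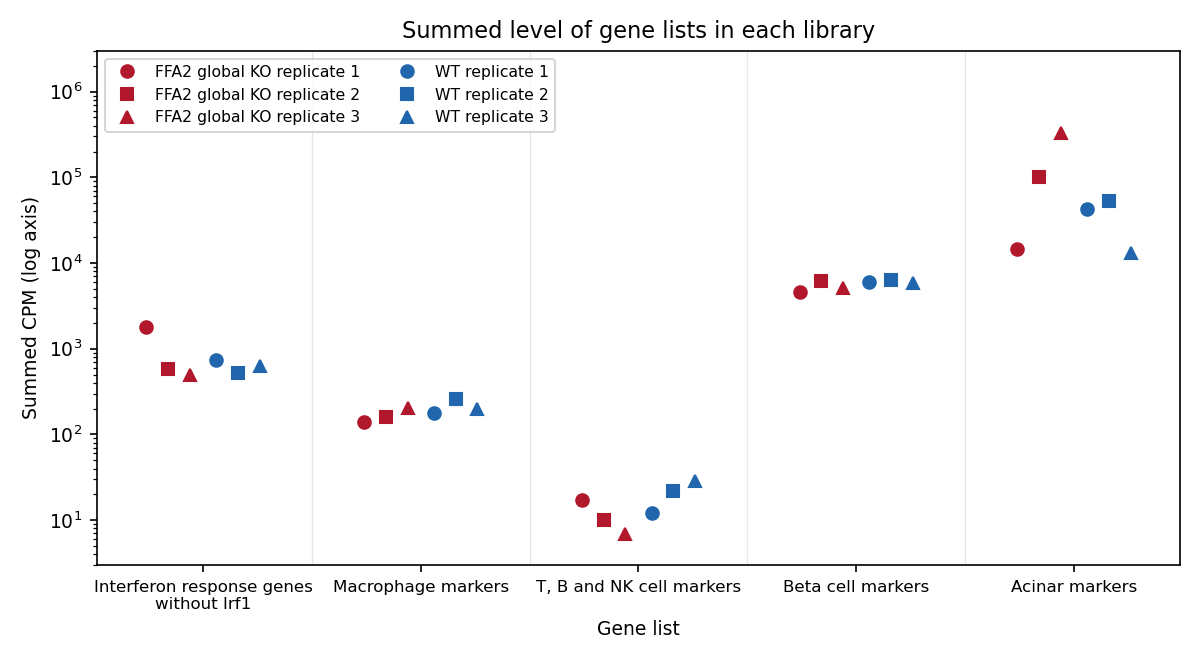
Summed CPM (log axis) of the interferon response genes without Irf1 and of 4 marker lists, in each library, with KO-labelled libraries in red on the left and WT libraries in blue on the right of each list. KO-labelled replicate 1 (red circle) is the highest for the interferon response genes, at 1780 CPM, and the lowest for macrophage markers, at 139 CPM.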

How the data were processed

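RNA of isolated islets was read in 6 libraries, 3 per genotype. The authors aligned reads with TopHat 2.0.8b to mm10 and compared genotypes with Cuffdiff 2.1.1. The authors deposited estimated counts per gene that are not normalized, of which 478 genes hold values that are not whole (9 by more than 0.1), and these were rounded. The tool that counted reads, its strand setting and its handling of reads with several matches were not given in the sources used here. The authors also deposited pooled RPKM values per genotype, used only to compare genes per length. Their own comparison in that file (log2 fold changes, a test score, p-values and adjusted p-values, as deposited) was not used.

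Names with several values (158) and 15 genes that the authors' caller had skipped were left out, leaving 22750 genes. Genes passing edgeR's filter (minimum count 10, minimum total 15) numbered 14082. The genotypes were compared with edgeR 4.0.16 (quasi-likelihood test, TMM scaling, Benjamini-Hochberg adjustment over all genes tested) in R 4.3.3, and the steps were tested on simulated data. By rule, values in every library were given for the genes of lowest unadjusted p and highest mean CPM in each role group and of lowest p in each pathway list, and the other genes with values in every library were chosen after their values were seen. The values of a gene on the list of receptors and kinases are not reported here. DESeq2 1.42.0, limma-voom (limma 3.58.1), other scalings, no filter, a replicate block and leaving out each library were alternatives. The members and lists were chosen with earlier results of these data known. Where a library held 0 counts, 3 counts were taken as the upper limit, which covers counting error only.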

Additional observations from a re-analysis of the deposited data

How the results depend on the processing

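No member passed an adjusted p of 0.05 under any alternative run. The median log2 fold change of the members was 0.55 with RLE scaling, 0.54 with acinar genes left out of the scaling, 0.58 with no filter, 0.54 in DESeq2 and 0.33 in limma-voom. Over all genes, 1 was called with no filter and 8 in DESeq2, against 0 in edgeR with the filter, and the cause was not tested. In limma-voom Nlrc5 turned to −0.14. Same-numbered libraries did not deviate together over all genes tested (correlations 0.11, −0.14 and −0.34), and the replicate number was not used as a pairing in the main fit. With so few libraries, and deviations centred within each group, these correlations cannot exclude a pairing or a shared batch, and the labels name none. With the replicate block 3 members had an unadjusted p under 0.05 and 454 of all genes did, the median was 0.25, and Dhx58 (−0.099), Ifit2 (−0.0046) and Nlrc5 (−0.13) turned below 0. With each library left out in turn, members with an unadjusted p under 0.05 ranged from 0 to 6, those above 0 from 9 to 40, their median log2 fold change from −0.18 to 0.69, and all genes with an unadjusted p under 0.05 from 225 to 1238. The log2 fold changes of 25 members changed sign without KO-labelled replicate 1, and of 5, 5, 3, 2 and 4 without the other libraries (KO-labelled replicates 2 and 3, then WT replicates 1 to 3). Their ranges were Irf1 −0.11 to 0.35, Igtp −0.089 to 0.80, Xaf1 −0.53 to 1.11, Dhx58 −0.66 to 0.45, Cmpk2 −0.076 to 0.57, Rsad2 −0.72 to 1.10, Irf9 −0.16 to 1.08, Rtp4 −0.25 to 1.67, Mx2 −0.60 to 1.31, Parp14 −0.11 to 1.23, Tap1 −0.060 to 0.57, Eif2ak2 −0.18 to 0.24, Ifit2 −0.68 to 0.66, Ifit3 −0.99 to 1.74, Ifit1 −0.67 to 2.26, Gbp7 −0.015 to 0.81, Ddx58 −0.14 to 0.93, Isg15 −0.55 to 0.68, Oasl2 −0.19 to 1.12, Oasl1 −0.42 to 1.04, Herc6 −0.15 to 0.40, Usp18 −0.26 to 0.47, Trim30a −0.10 to 0.27, Irf7 −0.60 to 0.61, Nlrc5 −0.61 to 0.43, Psmb8 −0.20 to 0.015, Psmb9 −0.29 to 0.043, Ifih1 −0.22 to 0.091, Zbp1 −1.33 to 0.29, Oas1a −0.57 to 0.13, Bst2 −0.031 to 0.14, Ifi35 −0.18 to 0.024 and Ifi27l2a −1.23 to 0.022. With 3 libraries per genotype, a 2-fold rise lay within the 95% interval of 30 of the 41 members tested.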

Other observations

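Genes outside the lists used above were high in KO-labelled replicate 1 as well. Only genes tested were ranked by the ratio of that library to the next, which left out Mx1 (ratio 3.30) and Oas3 (3.08). Of the 50 with the largest ratio, 10 were among the 43 interferon response genes, 7 were on the list of other interferon-stimulated genes and 33 were on neither. The 33 include genes known to respond to interferon or close to such genes, among them I830012O16Rik, Cxcl11, Slfn3, Mnda, Pyhin1 and Pydc3. The genes named here were chosen after their values were seen. Ppargc1a, a coactivator of mitochondrial biogenesis, was at 152, 29.3 and 6.24 CPM in KO-labelled replicates 1 to 3, against 34.2, 12.5 and 20.03 CPM in WT replicates 1 to 3. Vcl, which encodes vinculin of cell adhesions, was at 345, 90.7 and 31.7 CPM in the KO-labelled libraries, against 94.6, 39.97 and 54.3 CPM in WT. Dll1, a Notch ligand, was at 76.2, 20.4 and 12.4 CPM in the KO-labelled libraries, against 19.2, 13.1 and 16.1 CPM in WT. Cyp1a1, a target of the aryl hydrocarbon receptor, was at 23.5, 2.63 and 3.43 CPM in the KO-labelled libraries, against 8.05, 1.55 and 0.963 CPM in WT. For Ppargc1a, Vcl and Cyp1a1 the next library was WT replicate 1, and for Dll1 it was KO-labelled replicate 2.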
